A study of Homo sapiens with 30 samples.

Results

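The RNA described here was pulled down with GFP-tagged wild-type TIA1a from a pelleted cell extract that had received no arsenite, and it was set against the RNA of cytosol extracts of the same line. The members are 6 of the 30 libraries of the series, chosen by their titles: 3 of the granule fraction and 3 of cytosol. HEK293 is an established human embryonic kidney line. Its Flp-In T-REx derivative, FT293, carries a docking site at which a transgene sits under tetracycline control. All 6 libraries came from FT293-GFP-TIA1aWT cells, here called WT, that were treated with tetracycline and got 0 mM sodium arsenite. The 2 comparisons drawn on for contrast are the same fractions from FT293-GFP-TIA1aWDM cells without arsenite, which carry the Welander distal myopathy mutation in TIA1 (WDM), and from WT cells with 0.5 mM arsenite for 60 min. The cells are stably transfected, each line is a single one, and the granule RNA is what stayed on GFP-binding beads through a wash with 2 M urea. Tetracycline is shared by every group used. The design text describes the granule preparation for arsenite-treated cells only, so the arsenite-free pull-down is taken from its label. A pull-down from cells without the GFP fusion was not analysed here, so RNA that pellets or sticks to beads without TIA1 cannot be told apart from RNA bound to TIA1.

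Stress granules are assemblies of untranslated mRNA and RNA-binding proteins that form when translation initiation stalls, as under arsenite. TIA1 binds uridine-rich RNA through its RNA recognition motifs, and its prion-like tail takes part in assembly. Long, poorly translated mRNAs are known to be favoured in granules, and short mRNAs of the translation apparatus are known to be left out.

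The 6 libraries held 5906167 to 25176605 counts, and a count of 0 allowed up to 0.119 to 0.508 CPM (each gene's count scaled to its library total), counting error only. Cytosol replicate 1 stood apart from the other cytosol libraries: a chi-square of the counts, divided by its degrees of freedom, was 23.9 and 24.2 against them, and 2.81 between the other two. The granule libraries also differed from each other, with 15.5, 16.6 and, for replicates 2 and 3, 37.1. This statistic rises with depth, and replicates 2 and 3 were the deepest granule libraries. By correlation of log2 CPM they were the most alike granule pair, at 0.987 against 0.982 and 0.982 for the other pairs. Without cytosol replicate 1 the medians of all 41 classes described below kept their sign and moved by -0.17 to 0.48 on the log2 scale. A list of 7 markers held EPCAM, CDH1, KRT8, KRT18 and KRT19, which are epithelial, and CDH2 and VIM, which are mesenchymal. All 7 had a cytosol median above 1 CPM, with CDH2 at 214 and VIM at 769 CPM. Of 8 markers of HEK293 cells 7 did, PAX2 (1.29 CPM) and LHX1 (1.21 CPM) by a narrow margin. The neurofilament gene NEFM, the remaining marker of that list, was at or near 0. Among markers of other sources, 1 of 3 haematopoietic genes (HBA1, 1.25 CPM) and 1 of 3 fibroblast genes (COL1A1, 1.22 CPM) also passed. No endothelial or hepatocyte marker did. The labels do not say that replicates came from separate cultures, so p-values measure the spread between these libraries.

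TIA1 itself could not be followed: the table held 3 counts for it in 30 libraries, and 99.9% of its genomic span lies within another gene on the same strand. This was general. Of 268 protein-coding genes that lie wholly inside another gene on their strand but share under 5% of exon length with it, 266 (99.3%) had at most 30 counts over all 30 libraries, against 22.9% of 13365 genes with no such overlap. One count per gene is given, so spliced and unspliced RNA cannot be told apart, and whether introns were counted is not stated. TIAL1, the paralog of TIA1, had 116, 90.4 and 147 CPM in granule and 44.4, 32.0 and 28.8 CPM in cytosol. Its groups did not overlap, and the log2 fold change was 1.71 (SE 0.174, edgeR adjusted p = 6.07e-10).

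The fractions differed at most genes. Of 18141 genes tested, 13728 (75.7%) passed an adjusted p under 0.05 in edgeR's quasi-likelihood test, 7162 higher in granule (39.5%) and 6566 lower (36.2%). Of all tested genes 5229 passed with a difference of 1 log2 unit or more upward (28.8%) and 4299 downward (23.7%). The median over all genes was 0.07. These fold changes are shares of sequenced RNA, with no spike-in, so fewer molecules of one kind and more of the others cannot be told apart. Every class below is read against these background shares, and "higher" or "lower" always means in granule against cytosol. The classes were chosen with earlier results of these data known, so the class counts describe and do not test.

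**Figure D1:**
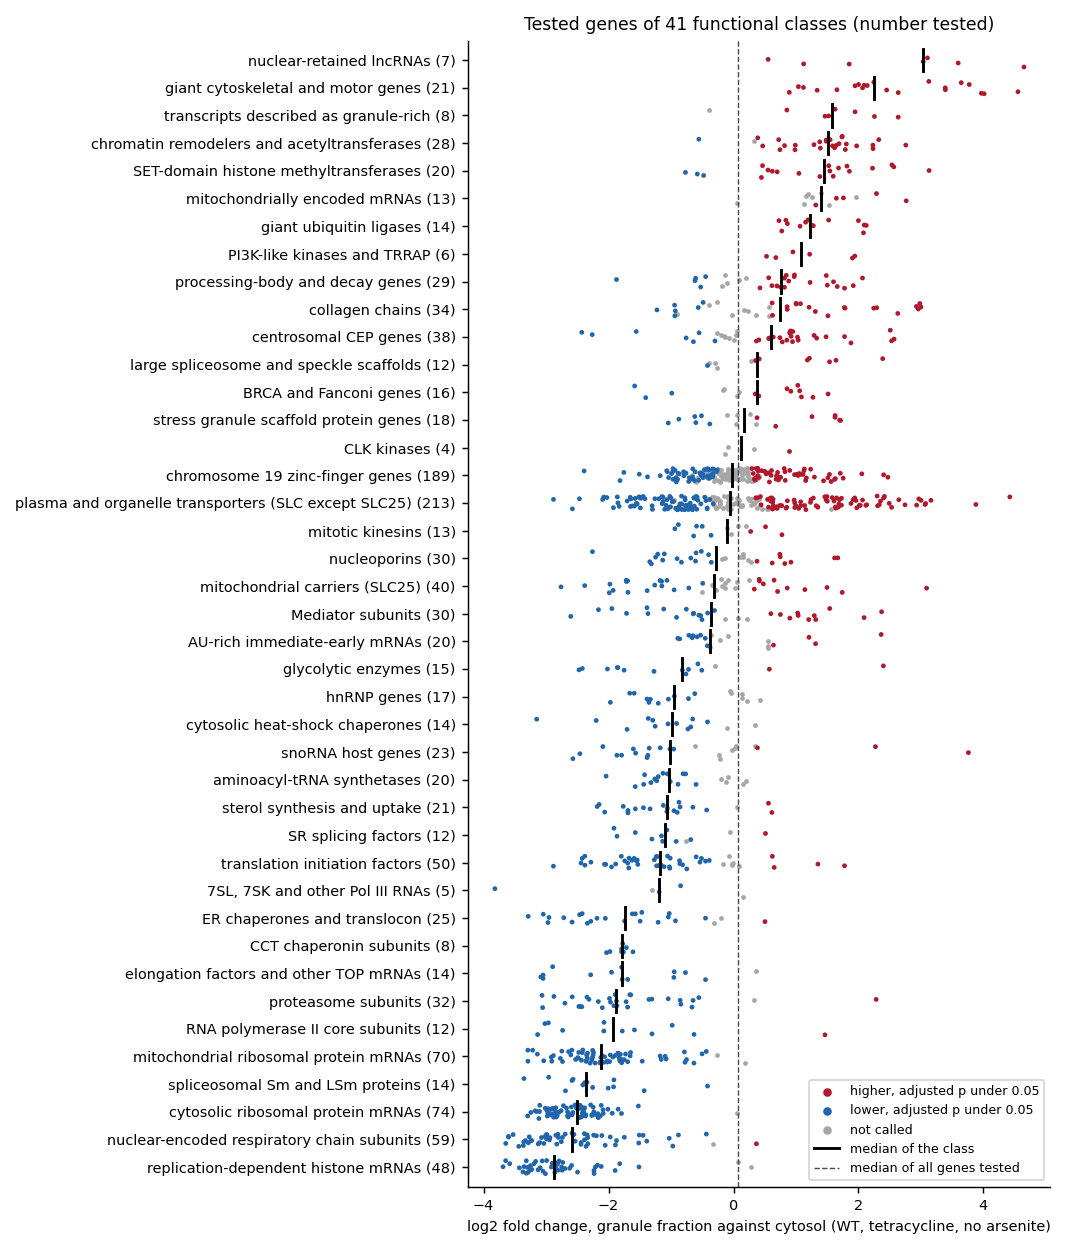
Each point is a tested gene of a functional class, placed by its log2 fold change between the granule fraction and cytosol, with the class median as a bar and the median of all genes dashed. Giant cytoskeletal genes, PI3K-like kinases, giant ubiquitin ligases and nuclear-retained lncRNAs lie to the right (medians 1.09 to 3.04), and respiratory chain, ribosomal protein and histone genes lie to the left, down to -2.88 for histones.

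The order of abundance differed between the fractions for the genes named here. By mean CPM MACF1 ranked 1, SPTBN1 ranked 2 and DST ranked 3 in granule, and the same genes ranked 172, 204 and 181 in cytosol. EEF1A1, the tRNA-delivering elongation factor, ranked 1 in cytosol and 28 in granule. EEF2, the translocating elongation factor, ranked 2 in cytosol and 16 in granule, and ENO1, the glycolytic enolase, ranked 3 and 63. PRKDC stood high in both, at 6 in granule and 7 in cytosol.

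All 21 giant cytoskeletal and motor genes were higher, with a median log2 fold change of 2.25, and in all 21 every granule library was above every cytosol library (39.3% of all genes tested showed that separation). Together they took 4.18%, 6.96% and 4.10% of the granule libraries' counts and 0.857%, 0.571% and 0.610% of the cytosol libraries' counts. PLEC encodes plectin, a plakin that ties intermediate filaments to other filaments and to junctions. It had 929, 1754 and 705 CPM in granule and 72.5, 34.6 and 34.9 CPM in cytosol, a log2 fold change of 4.55 (SE 0.346, edgeR adjusted p = 2.87e-11). The lowest granule library was far above the highest cytosol library. The plakin MACF1, which links microtubules and actin, had 7332, 13613 and 6922 CPM in granule and 806, 455 and 490 CPM in cytosol (log2 fold change 3.97). Granule replicate 2 was highest for both genes, and cytosol replicate 1 was the highest of the cytosol libraries. EPPK1, epiplakin, was not in the class but was among the 10 genes with the largest increase, at 4.20.

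The spectrins, which form the meshwork under the plasma membrane, followed the plakins. SPTAN1, the alpha chain, had 3955, 7865 and 3215 CPM in granule and 396, 243 and 276 CPM in cytosol (log2 fold change 4.01, SE 0.308). Its beta-chain partner SPTBN1, named after its values were seen, stood at 3.77. DST and SYNE2, named in the same way, were higher by 3.39 and 3.65. DST is a plakin, and SYNE2 a nesprin that joins the nuclear envelope to the cytoskeleton. The class was not uniform: FLNA, an actin cross-linking filamin, was higher by 0.89 and TLN1, the integrin-binding talin, by 1.04. For FLNA the granule libraries ran from 1532 to 2472 CPM and the cytosol libraries from 858 to 1222 CPM, so the groups stayed apart by a narrow margin.

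Of further groups that hold genes of large proteins, some were higher throughout and others went in both directions. All 6 PI3K-like kinases and TRRAP were higher (median 1.09), from ATR, the replication-stress kinase, at 0.53 to TRRAP, the scaffold of acetyltransferase complexes, at 1.94. PRKDC, the DNA-dependent protein kinase, had 4503, 5660 and 3749 CPM in granule and 2695, 1657 and 1503 CPM in cytosol, a log2 fold change of 1.22. All 14 giant ubiquitin ligases were higher (median 1.22), among them RNF213 at 2.12, UBR4 at 2.09 and HUWE1 at 1.52. Of 38 centrosomal CEP genes 23 were higher and 7 lower (median 0.60), with CEP128 at 2.57 and CEP350 at 2.53 at one end and CEP19 at -2.43 at the other. Of 16 BRCA and Fanconi genes 9 were higher and 3 lower (median 0.38), from FANCA at 1.51 to FANCF at -1.58. Nucleoporins went the other way more often, 8 higher and 15 lower of 30 (median -0.27). NUP214, a filament-side nucleoporin, stood at 1.67, and SEC13, shared with the COPII coat, at -2.26. Of 13 mitotic kinesins 3 were higher and 6 lower (median -0.11, or 0.09 without granule replicate 2), and 1 was higher without cytosol replicate 3 or without granule replicate 3.

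Nuclear-retained lncRNAs were higher throughout. All 7 nuclear-retained lncRNAs tested, of 11 listed, were higher (median 3.04, or 1.38 without the low-count filter). NEAT1, the scaffold RNA of paraspeckles, had 2623, 1902 and 1436 CPM in granule and 132, 46.7 and 53.2 CPM in cytosol. Its log2 fold change was 4.65 (SE 0.363, edgeR adjusted p = 3.36e-11). KCNQ1OT1, the antisense transcript of an imprinted domain, had 83.5, 102 and 130 CPM in granule and 12.7, 7.34 and 5.43 CPM in cytosol (log2 fold change 3.60, SE 0.250). In both genes cytosol replicate 1 was the highest cytosol library, and no granule library came near it. MALAT1 of nuclear speckles, named after its values were seen, was higher by 1.85 and TUG1 by 0.55, and for TUG1 the groups overlapped (102 to 131 against 63.2 to 106 CPM). The TUG1 call was lost in some settings (adjusted p = 0.0628 without cytosol replicate 2 and 0.0554 without cytosol replicate 3). Of 25 snRNA genes tested, 5 were higher and 8 lower (median -0.28). The part of nuclear RNA in the other results was not tested.

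Over all 3313 lncRNA genes tested, 1760 were higher and 563 lower, with a median of 1.05. They took 3.82% to 4.43% of the granule counts and 1.30% to 1.62% of the cytosol counts. Processed pseudogenes, intronless copies of mRNAs, went the other way: of 404 tested 277 were lower and 66 higher (median -1.94). Among the 10 largest decreases of named genes were RPL21P75 (-4.69), RPL21P28 (-4.20) and SNRPGP2 (-4.10), whose reads cannot be separated with certainty from those of their parent genes. The 10 largest increases included the lncRNAs LINC01505 (4.53) and LMCD1-AS1 (4.19), and the multi-copy ribosomal RNA entry 5_8S_rRNA, which was at least 26.0-fold higher, since all cytosol libraries were at or under 3 counts. The libraries were made after rRNA removal, and whether that removal differed between the fractions was not tested.

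Short RNA polymerase III transcripts were lower or not called: 3 of 5 tested were lower, none was higher, and 8 of the 13 listed were not tested. VTRNA1-3, 1 of the 3 lower, was not called without cytosol replicate 1 (edgeR adjusted p = 0.153) or without granule replicate 2 (0.158). The count of lower transcripts was 2 without granule replicate 2 and 4 without granule replicate 1. RN7SL1, the RNA of the signal recognition particle that docks ribosomes at the endoplasmic reticulum, had 705, 365 and 210 CPM in granule and 902, 948 and 957 CPM in cytosol (log2 fold change -1.19, SE 0.276). The granule libraries differed from each other more than the cytosol libraries did. Its copy RN7SL3 was lower by 3.82 on the log2 scale, and reads of the near-identical copies cannot be assigned with certainty. Among snoRNA host genes, whose introns carry small nucleolar RNAs, 3 were higher and 13 lower of 23 (median -1.02). SNHG31 stood at 3.76 and SNHG22 at 2.27, against -1.60 for SNHG16, the most abundant.

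**Figure D2:**
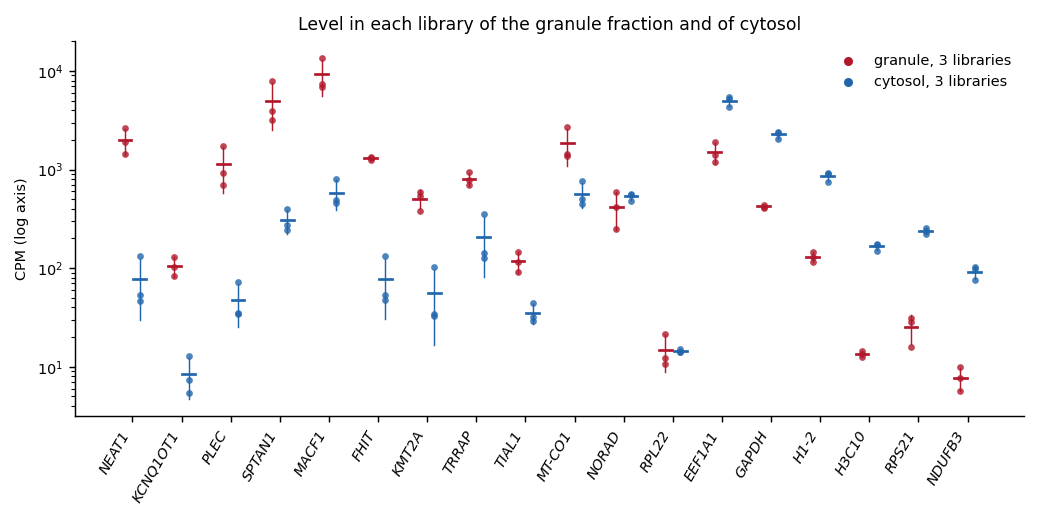
CPM on a log axis in each of the 3 granule and 3 cytosol libraries for 18 genes, with the mean as a bar and the SD as a line. From NEAT1 to MT-CO1 every granule library is above every cytosol library, NORAD and RPL22 overlap, and from EEF1A1 to NDUFB3 every granule library is below.

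Genes that write and remodel chromatin were mostly higher. Of 20 SET-domain histone methyltransferases 17 were higher and 3 lower (median 1.45). KMT2A, which methylates histone H3 at lysine 4 of active promoters, had 592, 545 and 380 CPM in granule and 103, 34.2 and 32.7 CPM in cytosol (log2 fold change 3.13, SE 0.368). Cytosol replicate 1 lay between the other cytosol libraries and the granule libraries, and 51% of the KMT2A span is shared with another gene on the strand. KMT2B, its paralog, stood at 2.57, and NSD1, a lysine 36 methyltransferase, at 1.38. The 3 lower members were SUV39H1 (-0.58), SUV39H2 (-0.77) and EHMT2 (-0.48), while EHMT1, the partner of EHMT2, and SETDB1 were higher by 0.62 and 0.45. Of 28 chromatin remodelers and acetyltransferases 26 were higher and 1 lower (median 1.52), with ARID1B, a BAF complex subunit, at 2.76 and the ISWI ATPase SMARCA5 at -0.56.

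Of 12 core subunits of RNA polymerase II 11 were lower and 1 was higher (median -1.93). The 1 higher was POLR2A, the large catalytic subunit, with 401, 529 and 308 CPM in granule and 288, 67.6 and 86.6 CPM in cytosol (log2 fold change 1.46, SE 0.484, edgeR adjusted p = 0.0108). Cytosol replicate 1 came close to the lowest granule library, and the call was lost without cytosol replicate 2, without cytosol replicate 3 and with only the 6 libraries fitted, with edgeR adjusted p of 0.0533, 0.0597 and 0.0655. POLR2K and POLR2I, small zinc-binding subunits, were lower by 3.14 and 3.02. Mediator, which bridges enhancer factors and polymerase, held both directions: 11 of 30 subunits were higher and 16 lower (median -0.36), with MED12L at 2.37 and MED13L at 2.09 against MED11 at -2.61. Of 189 chromosome 19 zinc-finger genes 51 were higher and 55 lower, with a median of -0.02 that was 0.02 with library size alone as scaling and 0.00 without granule replicate 2.

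The replication-dependent histone mRNAs were the lowest class. These mRNAs lack a poly(A) tail and end in a conserved stem-loop that is bound by the stem-loop binding protein. Of 48 tested, 46 were lower and none was higher (median -2.88), and their share of counts was 0.130% to 0.176% in granule and 0.864% to 1.02% in cytosol. The stem-loop is the feature that sets these transcripts apart from other mRNAs, so it is shown for 3 lower members and 1 that was not called. Capitals mark the motif GGCTCTTTTNAGAGCC, the 16-base word found in most listed histone transcripts, with N at position 10 where it varied most (sense strand, GENCODE canonical transcripts, GRCh38).
H1-2: ccaaaaGGCTCTTTTCAGAGCCacca
H3C10: cccaaaGGCTCTTTTCAGAGCCaccca
H3C7: accaaaGGCTCTTTTCAGAGCCacc
H2BC6: cccaaaGGCTCTTTTCAGAGCCactca
The windows lie at chr6:26055740-26055765 (minus strand), chr6:27810510-27810536 (plus), chr6:26250142-26250166 (minus) and chr6:26184204-26184230 (plus), in the 3′ untranslated ends. The motif was found in 46 of 64 listed histone genes and in 5 of the 60399 other canonical transcripts, histone genes having supplied the motif. Of the 34 tested histone genes with it, 33 were called, with a median of -2.95, and of the 14 without it 13 were called, with a median of -2.48.

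The linker histone H1-2 had 131, 146 and 117 CPM in granule and 751, 929 and 894 CPM in cytosol (log2 fold change -2.75, SE 0.198, edgeR adjusted p = 6.98e-13). H3C10, a histone H3 gene, had 12.5, 13.4 and 14.5 CPM against 149, 176 and 173 CPM (log2 fold change -3.65, SE 0.209). All granule libraries of both were far below all cytosol libraries. The 2 that were not called were H4C15 (0.07) and H2BC6 (0.28), at 2.70 to 6.43 CPM in granule and 2.90 to 4.87 CPM in cytosol. Histone genes are near-identical copies of each other, so the value of a single member is uncertain.

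Genes of RNA processing were mostly lower, the large scaffold proteins aside. All 14 Sm and LSm genes tested, which encode the small rings around spliceosomal RNAs, were lower (median -2.36), with SNRPD2 at 33.2, 21.7 and 32.0 CPM in granule and 243, 306 and 309 CPM in cytosol (log2 fold change -3.36, SE 0.210). LSM6 was not called without granule replicate 1 (adjusted p = 0.110) or without granule replicate 2 (0.0965). Of 12 SR splicing factors 9 were lower and 1 higher (median -1.10). SRSF3, the smallest of them, stood at -1.91, and SRSF11 at 0.51 was the exception. The SRSF11 call was lost in 1 setting (adjusted p = 0.103 without granule replicate 3). Of 17 hnRNP genes 11 were lower and none higher (median -0.95), or 2 higher without cytosol replicate 1, and HNRNPU, the most abundant, stood at -0.04 and was not called. Of 4 CLK kinases, which phosphorylate SR proteins, 1 was higher (CLK2, 0.88), or 2 without granule replicate 2. Of 12 large spliceosome and speckle scaffolds 7 were higher and 1 lower (median 0.38), with 3 lower without cytosol replicate 1 and 2 without granule replicate 2. SRRM2, the speckle scaffold, had 597, 700 and 468 CPM in granule and 236, 48.7 and 48.6 CPM in cytosol, a log2 fold change of 2.39 with a large SE of 0.515. PRPF8, at the heart of the spliceosome, stood at 1.54 and SON, a speckle protein, at 1.64.

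Genes that encode the proteins of RNA granules went in both directions. Of 18 stress granule scaffold genes 7 were higher and 6 lower (median 0.16, or -0.04 without the low-count filter). Both counts were near the shares of all genes, 39.5% higher and 36.2% lower. ATXN2 stood at 1.70, PRRC2C at 1.63 and UBAP2L at 0.68, while the core nucleators G3BP1 and G3BP2 were lower by 0.38 and 0.60 on the log2 scale and CAPRIN1 by 0.51. Processing-body and decay genes were more often higher, 19 of 29 against 5 lower (median 0.75). TNRC6B and TNRC6C, the scaffolds that bring Argonaute to the deadenylases, stood at 2.07 and 1.92, and CNOT1, the deadenylase scaffold, at 0.70. CNOT7, one of its catalytic subunits, was lower by 1.87.

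Of 8 tested transcripts that are known as granule-rich under stress, 7 were higher here without arsenite (median 1.57). AHNAK, a giant scaffold protein, had 694, 1484 and 921 CPM in granule and 241, 128 and 122 CPM in cytosol (log2 fold change 2.64, SE 0.361). DYNC1H1, the dynein heavy chain, stood at 1.95, TRIO at 2.26 and CDK6 at 0.85. The exception was NORAD, a long noncoding RNA that binds Pumilio proteins, with 599, 415 and 249 CPM in granule and 483, 570 and 555 CPM in cytosol. Its groups overlapped, and its log2 fold change of -0.40 was not called (edgeR adjusted p = 0.0557). Among 20 AU-rich immediate-early mRNAs, which decay fast, 4 were higher and 9 lower (median -0.37). EGR1 stood at 2.36 on 5.64 to 12.9 CPM in granule, while MYC was lower by 0.89 and MCL1, an apoptosis inhibitor, by 0.86.

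Nearly all mRNAs of the ribosome itself were lower. Of 74 cytosolic ribosomal protein genes tested, 73 were lower and none higher (median -2.51). Together they took 1.19%, 0.903% and 1.04% of granule counts and 4.88%, 5.83% and 5.68% of cytosol counts. Of 14 elongation factor and other TOP mRNAs, 13 were lower (median -1.79). TOP mRNAs start with a cytosine followed by a run of pyrimidines, through which mTOR signalling and LARP1 control their translation, and TIA1 and TIAL1 are known to bind them in starved cells. The starts are shown for 6 TOP mRNAs, RPL22 being the one that was not called, and for 3 genes without the tract. Capitals mark the tract from the RefSeq start, and the first 10 bases lie before it (GRCh38.p14).
RPS21: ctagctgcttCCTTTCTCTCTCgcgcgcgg
RPS13: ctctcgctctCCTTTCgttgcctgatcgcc
EEF1A1: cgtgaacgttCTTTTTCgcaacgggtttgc
TPT1: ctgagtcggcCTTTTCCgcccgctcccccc
BTF3: cttccggcctCCCTTTagctgccatcttgc
RPL22: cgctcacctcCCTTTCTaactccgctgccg
GAPDH: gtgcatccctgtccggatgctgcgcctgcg
SPTAN1: gcgcgtcgccgccactacccgctgcggagt
DYNC1H1: cgctctcctcagtctgcggtgggctagcgg
The windows of RPS21, RPS13 and EEF1A1 are chr20:62387093-62387122 (plus strand), chr11:17077648-17077677 (minus) and chr6:73521013-73521042 (minus). The motif searched was a C at the annotated start followed by 4 bases that are each C or T, sense strand only. At least 1 RefSeq start held it in 47 of 63 ribosomal protein genes and 10 of 11 other TOP genes with a sequence, against 1404 of all 27305 genes (5.14%). The 813 tested genes with the motif had a median of -0.37 and the 10910 without it a median of -0.08. The genes with the motif include ribosomal protein genes, and the 2 sets were not matched for length. The part of such a start in the low values was not tested.

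RPS21, a small-subunit protein, had 28.6, 15.8 and 31.1 CPM in granule and 224, 240 and 254 CPM in cytosol (log2 fold change -3.30, SE 0.244, edgeR adjusted p = 5.67e-12). EEF1A1 had 1892, 1403 and 1186 CPM against 4304, 5418 and 5193 CPM (log2 fold change -1.78, SE 0.197). TPT1, an abundant TOP mRNA, had 114, 76.8 and 120 CPM against 776, 921 and 853 CPM (log2 fold change -3.09). No granule library of these 3 genes reached a cytosol library. RPL22, with the same kind of start, had 10.7, 12.2 and 21.7 CPM in granule and 14.0, 14.1 and 15.2 CPM in cytosol, a log2 fold change of 0.05, and 56% of its span is shared with another gene on the strand. PABPC1, the poly(A)-binding protein, was the TOP mRNA that was not called (0.36), with cytosol replicate 1 at 347 CPM and the other cytosol libraries at 144 and 161 CPM.

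Among 50 translation initiation factors 40 were lower and 4 higher (median -1.18). The higher ones named by the rule were the long scaffold genes EIF4G3 (1.78) and EIF4G1 (0.62) and the ribosome-joining GTPase EIF5B (1.35). EIF3I and EIF3K, small subunits of the eIF3 complex, stood at -2.88 and -2.44. Of 20 aminoacyl-tRNA synthetases 15 were lower and none higher (median -1.04), with KARS1 for lysine at -2.04.

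**Figure D3:**
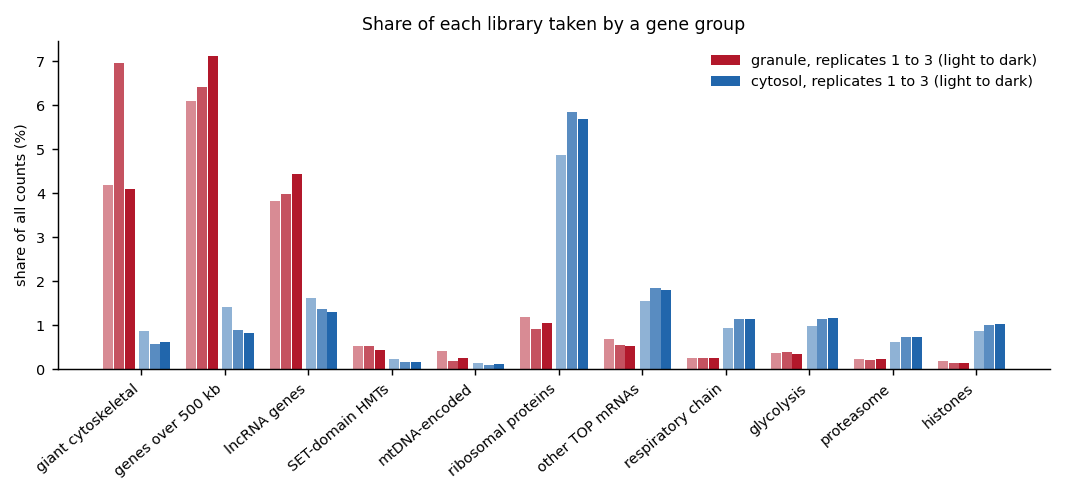
Bars from 0 show the percentage of each library's counts that a gene group took, granule replicates in red and cytosol replicates in blue. Giant cytoskeletal genes took 4.10% to 6.96% of granule counts, and ribosomal protein genes took 4.88% to 5.83% of cytosol counts.

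Nuclear genes for mitochondrial proteins were mostly lower. Of 59 nuclear-encoded respiratory chain subunits 57 were lower and 1 higher (median -2.58), and of 70 mitochondrial ribosomal protein genes 68 were lower and none higher (median -2.13). The 1 higher respiratory chain gene was NDUFA10, a complex I subunit, at 0.37, and its call was lost in 6 of 12 other settings. NDUFB3, a small complex I subunit, had 9.82, 5.70 and 7.75 CPM in granule and 75.4, 102 and 98.2 CPM in cytosol (log2 fold change -3.65, SE 0.210). The 13 mRNAs of the mitochondrial genome, which are made and translated inside the organelle, had a median of 1.40, with 5 higher, none lower and 8 not called, and that share of higher genes was close to the 39.5% of all genes. MT-CO1, a cytochrome oxidase subunit, had 2712, 1371 and 1450 CPM against 760, 447 and 505 CPM (log2 fold change 1.65, SE 0.320). MT-CO3, from the same complex, had 735, 294 and 361 CPM against 437, 409 and 442 CPM and was not called (0.05). Granule replicate 2 was the lowest granule library for both. Without it 11 of the 13 were higher, and without any 1 of the other 5 libraries 3 were.

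Short mRNAs of metabolism and protein folding were lower. Of 15 glycolytic genes 12 were lower and 2 higher (median -0.82). GAPDH had 441, 417 and 410 CPM in granule and 2029, 2376 and 2430 CPM in cytosol (log2 fold change -2.47, SE 0.206, edgeR adjusted p = 1.10e-11). LDHB, one of the 2 higher, had 0.847, 0.156 and 1.07 CPM against 0.221, 0.0807 and 0.0811 CPM with overlapping groups, and 18% of its span is shared with another gene on the strand. The LDHB call was lost in 1 setting (adjusted p = 0.133 without granule replicate 3), and 1 glycolytic gene was higher without cytosol replicate 2. Of 32 proteasome genes 30 were lower (median -1.88), from PSMB6 at -3.07. The 1 higher was PSMA1, at 41.7, 45.6 and 43.4 CPM against 12.3, 7.66 and 6.24 CPM (2.28), and 11% of its span is shared. All 8 subunits of the CCT chaperonin, which folds actin and tubulin, were lower within a narrow range, -2.03 to -1.61. Of 14 cytosolic heat-shock chaperones 12 were lower and none higher (median -0.98), with HSPA8 at -1.25 and HSP90AA1 not called at -0.10. ACTB, beta-actin, named after its values were seen, stood at -1.75.

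Genes of the secretory pathway and of membrane transport were mixed. Of 25 endoplasmic reticulum chaperones and translocon genes 22 were lower and 1 higher (median -1.74), the latter called in none of the fits without cytosol replicate 2, cytosol replicate 3, granule replicate 1 or granule replicate 3, with CANX, the calnexin gene, at 651, 494 and 460 CPM against 1704, 1702 and 1804 CPM (-1.74). Sterol genes followed, 18 of 21 lower and 2 higher (median -1.07). The 2 higher were LSS, which closes the sterol rings, at 0.56 and SREBF2, the sterol-sensing transcription factor, at 0.61, whose groups overlapped. Collagen chains ran the other way, 19 of 34 higher and 6 lower (median 0.74), with COL25A1 at 531, 519 and 665 CPM against 125, 72.8 and 72.4 CPM (2.63). Of 213 membrane transporters of the SLC families 78 were higher and 79 lower (median -0.06), near the 39.5% and 36.2% of all genes. Among 40 mitochondrial carriers 11 were higher and 18 lower (median -0.31), from SLC25A21 at 3.09 to SLC25A5, the ADP/ATP carrier, at -2.76. Without granule replicate 3 the count of higher carriers was 7.

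Across classes, the fold change went with length. Across 13584 protein-coding genes the log2 fold change correlated with the length of the gene in the genome (Spearman's rho 0.60) more than with that of the canonical transcript (0.47) or coding sequence (0.50). Such a correlation is across genes of the same libraries, which are not independent. The uridine content of the transcript (-0.03) and the number of UUUUU runs per kb of the 3′ untranslated end (0.01) showed almost none, although TIA1 is known for uridine-rich sites. Both were taken from the spliced canonical transcript, so uridine-rich sites in introns were not measured. Genes higher by at least 1 on the log2 scale had a median span of 129663 bases and a median transcript of 4986 bases, and those lower by as much had 14121 and 2008 bases.

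Within every range of transcript length the median log2 fold change rose with the span of the gene. At spans up to 40 kb it also rose with transcript length, but at longer spans not steadily. For spans of 40 to 160 kb the medians were 0.47, -0.06, -0.04, 0.35 and 0.78, from the shortest to the longest transcripts. Protein-coding genes with transcripts up to 1 kb had a median of -2.53 where the gene spanned up to 10 kb and of 1.38 where it spanned over 160 kb. For transcripts over 8 kb the medians were 0.36 for spans of 10 to 40 kb and 1.91 for spans over 160 kb. In 315 single-exon genes, which have no introns to count, 228 were lower (median -1.17). Their median went from -2.75 for transcripts up to 1 kb (76 genes) to -0.63 for those over 4 kb (58 genes). Histone genes, of which 48 were tested (median transcript 486.5 bases, median -2.88), were not taken out. The trend without them was not tested. Of 279 tested protein-coding genes with a span over 500 kb, 266 were higher and 4 lower (median 2.68). FHIT, which lies across a common fragile site, had 1262, 1300 and 1349 CPM in granule and 132, 52.8 and 47.8 CPM in cytosol (4.04), with a transcript of only 3116 bases. Unspliced RNA of such genes was not measured apart from spliced RNA, and its part in these values was not tested.

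**Figure D4:**
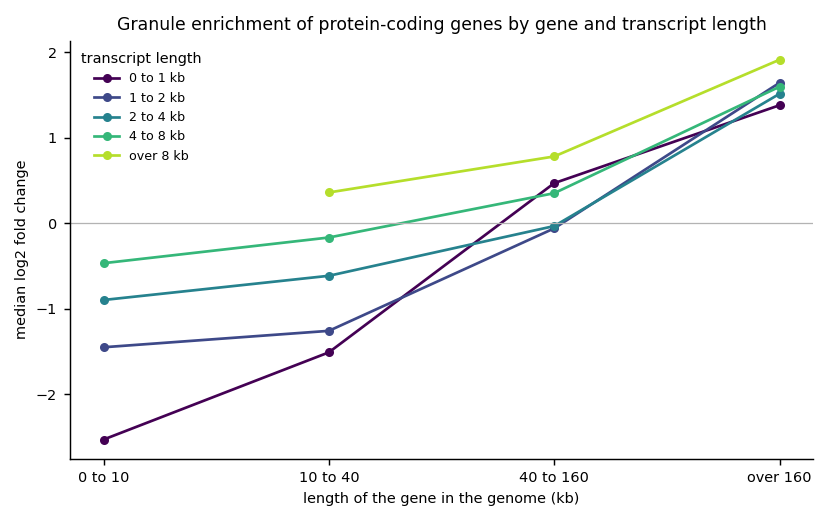
Median log2 fold change of protein-coding genes, granule against cytosol, by the length of the gene in the genome (horizontal axis, kb) and of its transcript (lines). Within each line the median rises from the shortest to the longest genes, to between 1.38 and 1.91 above 160 kb, and bins with few genes are left out.

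The WDM line was fitted in the same way. In that line 12898 of the 18141 genes passed the test (71.1%). A test of the difference in enrichment between the lines called 1 gene (0.00551%), with 929 at an unadjusted p under 0.05, and no member of the 41 classes was called. The gene was CALCB, a calcitonin-related peptide, named after its values were seen, with 4.59 ± 0.63 CPM in granule and 10.2 ± 1.64 CPM in cytosol of WT (SD, n = 3). In WDM it had 32.4 ± 6.84 and 11.5 ± 1.13 CPM. The log2 enrichment was thus -1.14 in WT and 1.47 in WDM, and the difference of -2.61 (SE 0.266) had an edgeR adjusted p of 1.64e-06. The class medians in WDM were 1.87 for giant cytoskeletal genes, 2.56 for nuclear lncRNAs, -2.19 for ribosomal proteins and -2.43 for histones. A p that misses the threshold does not show that the lines are alike.

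The enrichment differed with arsenite at many more genes. With arsenite 12798 genes passed the test of granule against cytosol in WT (70.5%), and the difference between the enrichments without and with arsenite was called for 5704 (31.4%). It was positive, that is larger without arsenite, for 3524 (19.4%) and negative for 2180 (12.0%), or 41.7% positive of 4897 called without the low-count filter, with a median over all genes of 0.21, relative to which the following differences are read. Of the 21 giant cytoskeletal genes 15 had a larger enrichment without arsenite and 1 a smaller one, and the class median was 2.25 without and 1.36 with arsenite. PLEC stood at 139 ± 12.5 CPM in granule and 42.4 ± 7.14 CPM in cytosol with arsenite (SD, n = 3), a log2 enrichment of 1.71, and the difference to 4.55 without arsenite was 2.84 (SE 0.435, edgeR adjusted p = 6.10e-05). For MACF1 the granule level was 2193 ± 135 CPM with arsenite, against 9289 CPM without, while cytosol held 528 ± 68.0 CPM with and 584 CPM without. The difference was 1.91 (SE 0.380, edgeR adjusted p = 0.000474). In both genes the mean levels with and without arsenite lay further apart in granule than in cytosol. SPTAN1 (2.19) and EPPK1 (2.30) differed alike, while for TLN1 the enrichment was smaller without arsenite (-0.77).

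In lncRNA genes, snoRNA host genes and RNA polymerase III transcripts, called differences were mostly toward a larger enrichment, or a smaller depletion, without arsenite. Processed pseudogenes did not lean that way, with 12 positive and 18 negative of 404. Among lncRNA genes the difference was positive for 813 and negative for 86 of 3313. KCNQ1OT1 differed by 1.92 and SNHG31 by 2.32, and FHIT by 1.96, while TUG1 differed by -0.68. For NEAT1 the difference of 0.98 was not called (edgeR adjusted p = 0.0938). RN7SL1 was lower by 3.10 with arsenite and by 1.19 without, and RN7SL3 by 6.19 and 3.82, differences of 1.91 and 2.37. MT-CO1 was enriched by 1.65 without arsenite and stood at -0.25 with it, a difference of 1.90, and TIAL1 went from 1.71 to 0.38, a difference of 1.33. Of the 74 ribosomal protein genes 31 were less depleted without arsenite and none more (medians -2.51 and -3.09).

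Other genes were enriched less without arsenite. NORAD had 998 ± 135 CPM in granule and 394 ± 16.8 CPM in cytosol with arsenite, a log2 enrichment of 1.35 against -0.40 without, and the difference of -1.75 (SE 0.268) had an edgeR adjusted p of 3.05e-05. MYC differed by -1.11, MCL1 by -1.08 and CANX by -1.10. In 6 of the 20 AU-rich immediate-early mRNAs the difference was negative and in 4 positive, and of the 25 endoplasmic reticulum genes 9 had a negative difference and 1 a positive one. The PI3K-like kinases had no member called either way (medians 1.09 without and 1.48 with arsenite), and histones stood at -2.88 in both.

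**Figure D5:**
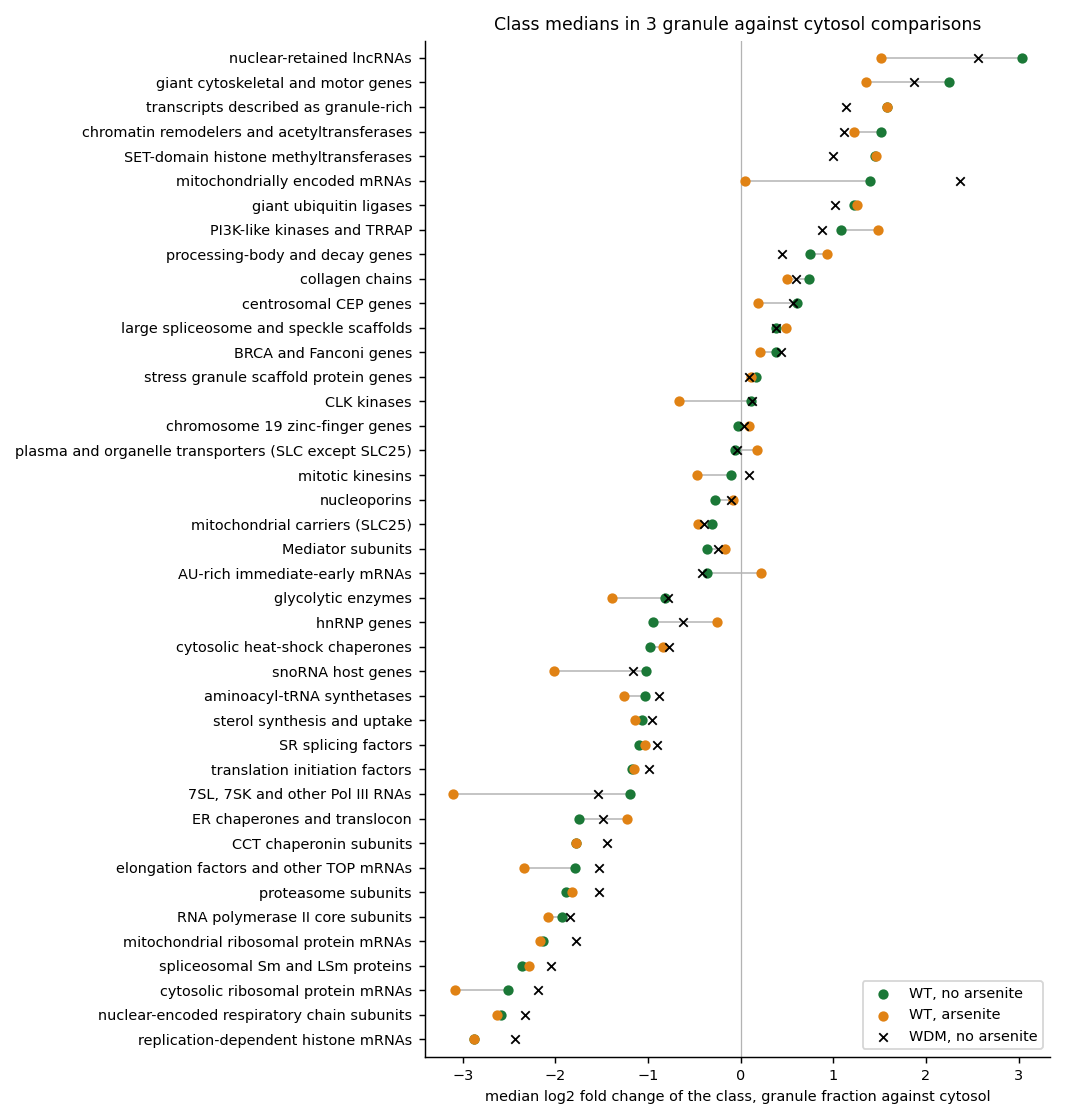
Median log2 fold change of each class, granule against cytosol, in WT without arsenite (green), WT with arsenite (orange) and WDM without arsenite (crosses). Giant cytoskeletal genes went from 2.25 without to 1.36 with arsenite, and the mitochondrially encoded mRNAs from 1.40 to 0.04. The difference was called positive for only 3 of the 13 mitochondrially encoded mRNAs, a share close to the 19.4% of all genes.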

How the data were processed

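Total RNA was sequenced after rRNA removal (TruSeq Stranded, per the labels). The authors deposited raw counts per gene in 1 table, with Trimmomatic, STAR, Picard, featureCounts and GRCh38 named in the submitters' processing notes. Versions, annotation release and the treatment of strand and of introns are not given in the sources used here. Of 60664 genes, 40609 carry a symbol and 60463 were found in GENCODE release 44, from which lengths were taken. Groups came from the titles. The 24 libraries of tetracycline-treated cells were fitted in edgeR 4.0.16 (R 4.3.3): filterByExpr (minimum count 10, total 15), TMM factors, group means, robust quasi-likelihood F-tests and Benjamini-Hochberg adjustment over all genes tested. The SE is the absolute log2 fold change divided by the root of F. The fit was tested on simulated data. CPM were computed from library totals. Replicate numbers did not pair granule with cytosol libraries (correlations of deviations -0.09, -0.09 and 0.07).

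Members and the 41 classes (1611 genes) were chosen with earlier results of these data known. Named were TIA1 and TIAL1, the 10 largest changes each way (symbol, adjusted p under 0.05, 5 CPM or more, no overlap of libraries), per class the most abundant and the 2 highest and 2 lowest members, and whole classes of up to 8. Genes given for other reasons (the enrichment of PRRC2C, UBAP2L, G3BP1, G3BP2, CAPRIN1, EHMT2 and MALAT1 included) were chosen after their values were seen. Also tried were DESeq2 1.42.0, RLE scaling, scaling by totals, a fit to all genes, a block for replicate number, fits to the compared groups alone and fits lacking 1 library each. Figures were made with matplotlib 3.10.9.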

Additional observations from a re-analysis of the deposited data

Results flagged for a closer look

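The difference in enrichment between the lines stood out for CALCB, at -2.61 on the log2 scale (WT minus WDM), by the interaction test over all genes. The difference between the enrichments without and with arsenite was called positive for 3524 genes and negative for 2180. Among the genes named, it was positive for PLEC (2.84), RN7SL3 (2.37), SNHG31 (2.32), EPPK1 (2.30), SPTAN1 (2.19), FHIT (1.96), KCNQ1OT1 (1.92), RN7SL1 (1.91), MACF1 (1.91), MT-CO1 (1.90) and TIAL1 (1.33). It was negative for NORAD (-1.75), MYC (-1.11), CANX (-1.10), MCL1 (-1.08), TLN1 (-0.77) and TUG1 (-0.68). Each of these passed an adjusted p under 0.05 in edgeR's test of the difference itself.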

How the results depend on the processing

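Counts of genes called between granule and cytosol stayed within 1.5 times of 13728 under all alternatives: 13729 with RLE factors, 13682 with library size alone, 14418 without the low-count filter, 12167 with only the 6 libraries, 13568 with DESeq2 and 13054 to 13848 with a library left out. With the replicate number as a block it was 13893. The numbers share no pairing with the fractions, so the block is given for completeness. The difference between the lines was called for 2 genes, in place of 1, with library size alone, without the filter, with the replicate block and with DESeq2, and for 1 gene with each library left out. The arsenite difference was called for 4308 to 5914 genes with a library of the arsenite-free groups left out, up to 6079 with an arsenite library left out and 6287 with the block. Without the filter it was called for 4897, of which 41.7% were positive, against 61.8%. No named gene that was called changed direction. Of class medians, those of chromosome 19 zinc-finger genes, CLK kinases, stress granule scaffold genes and mitotic kinesins changed sign in 1 or 2 alternatives, and that of membrane transporters was 0 without the filter. Leaving out 1 library gave 1 higher gene in place of none among TOP mRNAs and heat-shock chaperones (cytosol replicate 1) and mitochondrial ribosomal proteins (granule replicate 1), and 1 lower granule-rich transcript (cytosol replicate 1 or granule replicate 1). Restricted to members with no overlap on the strand, an alternative chosen after seeing the data, the stress granule scaffold median was -0.11 and that of snoRNA host genes -0.23. Genes nested in others, TIA1 among them, cannot be measured here.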
